A study of Mus musculus with 16 samples.

Results

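The 31 neural genes described here are genes of neural progenitors and neurons, together with Sox6 and Nrp1, which the study examined as further loci besides its target Ptn. They were found as every non-control probe whose gene symbol, matched through its RefSeq accession, was one of the 31, which gave 48 probes for 31 of the 20972 genes on the array. RNA came from E14, a mouse embryonic stem (ES) cell line kept in serum and LIF, and was read on 16 single-colour Agilent arrays, 4 for each of 4 transfected constructs. In Ptn_VP64 a TALE, a designed DNA-binding protein, was directed to Ptn and carried VP64, a synthetic transcriptional activator. In Ptn_DEL the same kind of TALE carried DEL, an acidic peptide used to open chromatin. In Ptn_Delta the labels name a TALE to Ptn and Delta, and do not say what Delta is. EGFP was the fluorescent protein with no TALE. All 4 groups were lipofected, sorted for eGFP at 24 h and harvested at 48 h, so no group shows cells that were not transfected. Each group's 4 arrays hold 2 biological replicates and 2 technical ones, and which arrays repeat the same sample is not stated.

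Neural differentiation starts with progenitors that express Sox and Pax transcription factors and the filament protein nestin. Proneural factors such as the neurogenins then drive cells out of the cycle, and neurons switch on their own tubulin, microtubule-binding proteins, adhesion molecules, receptors and synaptic vesicle proteins. ES cells held with LIF are pluripotent, and cultures in serum are known to be mixed, so low levels of lineage genes are usual in them. These are measurements on bulk RNA, in which fewer cells of a type and less RNA per cell cannot be told apart.

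Levels are log2 of the processed signal against the 75th percentile of the array's signal, and they were corrected for dim and bright patches on the arrays. A level of 0 is therefore bright among all spots, while the median over the genes tested, defined below, was 0.79. The 75th percentile ran from 209.3 to 1253 signal units between arrays, and 27.1 to 43.8% of spots were well above background. EGFP replicate 2 had the lowest percentile and the smallest share of spots well above background. Each construct occupied the same column of both slides, so an effect of the construct and one of the column cannot be told apart. All 9 ES cell markers read, among them Pou5f1, Sox2 and Nanog, were well above background on at least 1 array of every group, with group means between 4.28 and 7.18. Of the markers of other cells, Gfap and Aqp4 of astrocytes, Mesp1, Mixl1 and Tbx6 of mesoderm, Elf5 of trophoblast and Ptprc of blood were well above background on no array. Ptn itself differed by 4.20 ± 0.73 (SE) between Ptn_VP64 and EGFP, short of the threshold in the cautious limma test over pairings (adjusted p = 0.437) and past it in the unaveraged limma fit (adjusted p = 0.0336), both explained with the first comparison.

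As a group the neural genes were dim. A probe was tested when it was well above background on at least 4 arrays and had a value on at least 2 arrays of every group. By this rule 18 of the 31 genes (58.1%) were tested, against 10933 of all 20972 genes (52.1%). The median level of the 18 was -0.34, against 0.79 over all genes tested. A further 3 genes, Nes, Tubb3 and Stmn2, were well above background on 10 arrays each but had fewer than 2 values in a group. The other 10 genes were well above background on fewer than 4 arrays. Of these, Pax3, Neurog1, Neurog2, Fabp7 and Nrp1 were well above background on no array, Hes5, Olig2, Sox6 and Dcx on 1 array each and Dlx2 on 2 arrays.

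**Figure D1:**
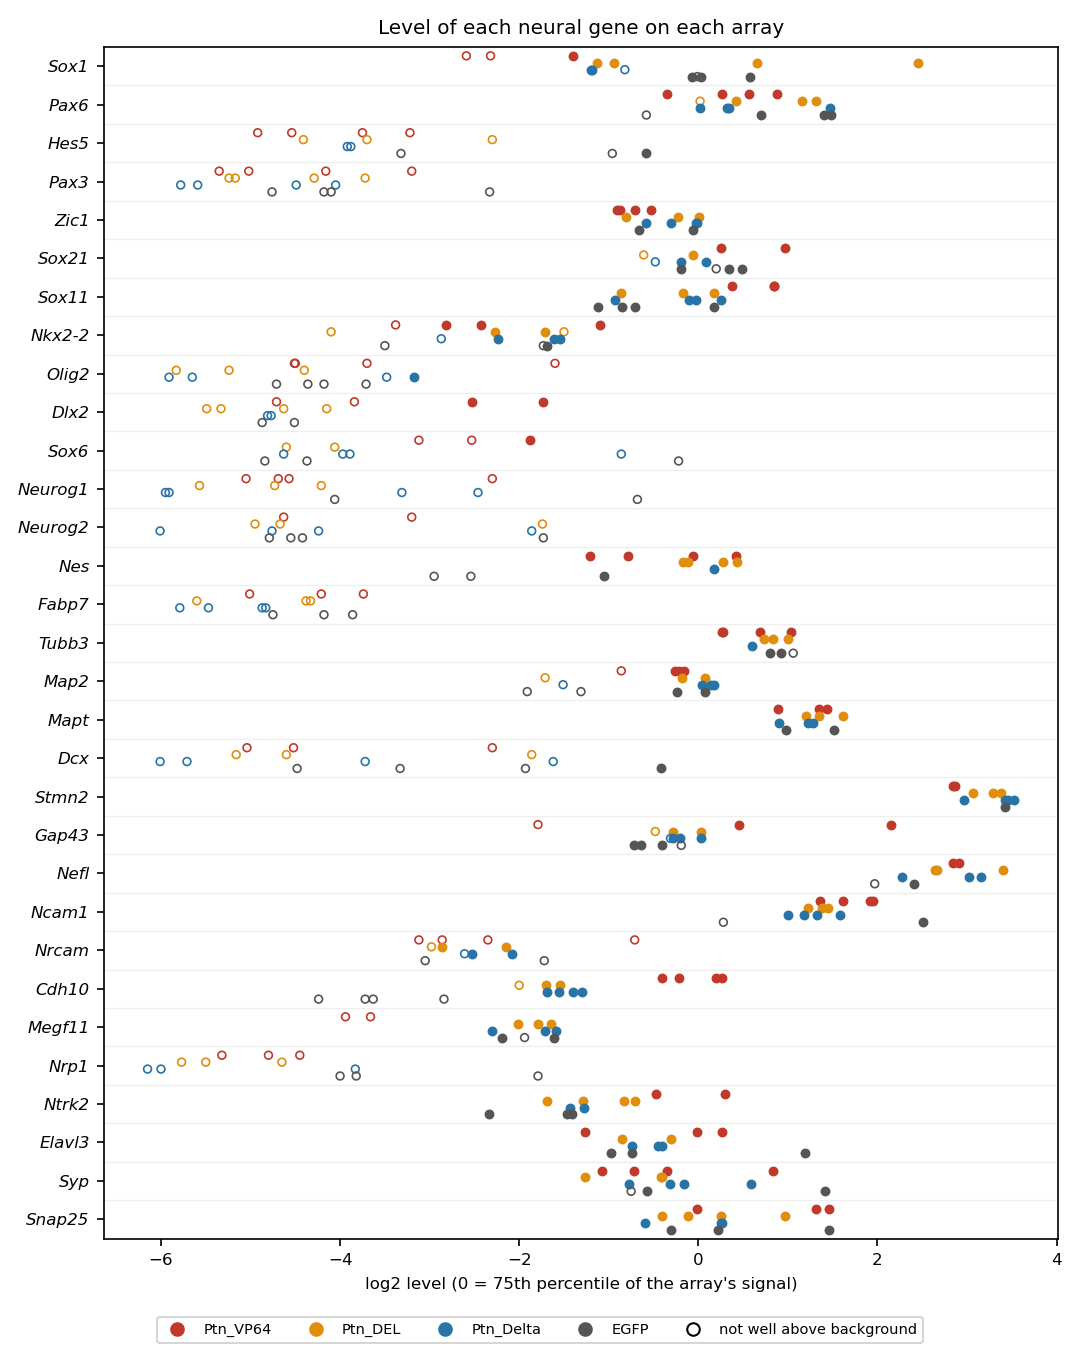
Level of each of the 31 neural genes (x axis, log2 relative to the 75th percentile of each array), with 1 point per array coloured by construct and open where the spot was not well above background. Nefl and Stmn2 lie at 1.97 or above on every array with a value, while Pax3, Neurog1, Neurog2, Fabp7 and Nrp1 have open points throughout.

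Among the 11 progenitor transcription factors, 6 were tested. Pax6, a regulator of eye, forebrain and spinal cord development, had the highest mean of the 6 at 0.59. Next came Sox21, a SoxB repressor, at 0.08, Sox11, a SoxC factor of newly formed neurons, at -0.15, Zic1, a zinc finger factor of the neural plate, at -0.44, Sox1, one of the earliest markers of neural commitment, at -0.57 and Nkx2-2, a ventral spinal cord homeobox factor, at -2.30. Hes5, a Notch target that holds progenitors undifferentiated, Pax3 of the dorsal neural tube, Olig2 of motor neuron and oligodendrocyte progenitors and Dlx2 of the ventral forebrain stayed at or near background. Neurog1 and Neurog2, which drive neuronal differentiation, were the whole of the proneural group, and neither was detected.

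The 2 brightest neural genes, Stmn2 and Nefl, were cytoskeletal. Stmn2, a tubulin-binding protein of growth cones, averaged 3.23, Nefl, the light neurofilament subunit, 2.73, Mapt, the microtubule-binding protein tau, 1.25 and Tubb3, a neuronal tubulin, 0.75. Ncam1, a neural cell adhesion molecule, averaged 1.44 and Snap25, a protein of the vesicle fusion complex, 0.37. Other genes of the cytoskeleton and growth cone were dimmer, with Gap43 at -0.19, Map2 at -0.52 and Dcx at -3.62. These levels are of single probes, and a level of one probe does not compare with that of another, so the order describes signals and not amounts of RNA. Where a gene had several probes they could disagree. The 3 probes of Mapt averaged 1.25, 0.89 and -1.92, and the other 2 probes of Ntrk2 were well above background on no array. The second Pax6 probe averaged -3.71 and was well above background on no array. The second Sox1 probe averaged -3.64 and was well above background on 2 arrays.

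In the comparison of Ptn_VP64 with EGFP, which asks whether activation directed to Ptn went with other changes in these genes, the neural genes showed no shared direction. Of the 18 tested, 11 were higher and 7 lower, with a median difference of 0.22 against 0.03 over all genes tested. The differences ran from -2.29 for Sox1 to 3.57 for Cdh10. The test was made cautious for the unstated technical repeats. The 4 arrays of a group can be paired in 3 ways. For each way the pairs were averaged, giving 2 values a group, limma was fitted, and the largest of the 3 p-values was adjusted by Benjamini-Hochberg over all 10933 genes. By this test 0 of the 18 neural genes passed an adjusted p of 0.05, and 2 of all genes (0.0183%) did. At an unadjusted p under 0.05 it picked 5 neural genes, against 8.25% of all genes.

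A limma fit of the 16 arrays unaveraged, with the slide as a term, called 3 neural genes in this comparison, against 2.87% of all genes. Cdh10 and Ntrk2 were higher (2.2% of all genes) and Megf11 lower (0.677%). At an unadjusted p under 0.05 it picked 5 neural genes, against 15.4% of all genes. Because technical repeats enter it as if they were separate samples, its p-values are smaller than they should be, by how much is not known. Arrays of Ptn_VP64 and EGFP did not overlap for 4 genes that were higher and 2 that were lower, against 13.6% and 9.46% of all genes.

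Cdh10, a type II classical cadherin that mediates adhesion between neurons, showed the largest difference. In Ptn_VP64 its levels were -0.21, 0.27, -0.41 and 0.20. In Ptn_DEL they were -1.70, -2.0 and -1.54, in Ptn_Delta -1.69, -1.55, -1.40 and -1.30, and in EGFP -3.72, -2.84, -3.63 and -4.24. Every Ptn_VP64 array lay above every array of the other groups, and every array of Ptn_DEL and Ptn_Delta lay above every EGFP array. The gene was well above background on 4 of 4 Ptn_VP64 arrays, 2 of 3 Ptn_DEL arrays, 4 of 4 Ptn_Delta arrays and 0 of 4 EGFP arrays.

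Cdh10 was higher in Ptn_VP64 than in EGFP by 3.57 ± 0.28 (SE), which missed the threshold in the cautious test (adjusted p = 0.0974) and passed it in the unaveraged limma fit (adjusted p = 2.51e-05). Since no EGFP array measured it, the fold is given as a nominal bound. The mean of the brighter group was set against the mean, over the arrays of the dimmer group, of the lowest level called well above background on that array or the gene's own level, whichever was higher. By this nominal bound Cdh10 was 6.61-fold higher in Ptn_VP64. It is not a strict lower limit, since brighter spots could miss detection on the same array. On EGFP replicate 2 the lowest level called was -3.06, while Sox1 at -0.01 and Sox21 at 0.20 were not well above background. The difference was 3.31 within slide 1 and 3.83 within slide 2. With EGFP replicate 2 left out, the cautious test called it (3.79, adjusted p = 0.0160). Without patch correction the difference was 3.73 ± 0.66 and was called by neither test (adjusted p = 0.0554 in the unaveraged limma fit). With normexp background correction it was 1.55, smaller than the bound, so the bound holds only for the processing reported.

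**Figure D2:**
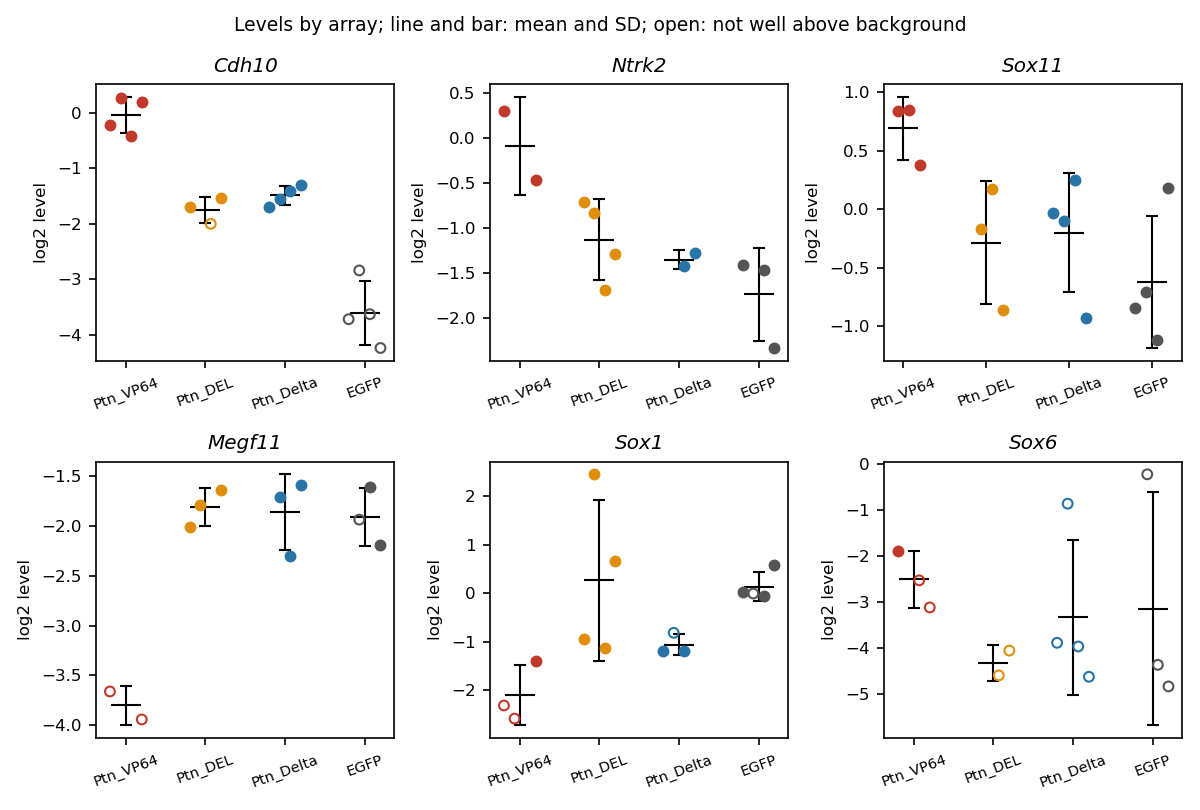
Levels of 6 neural genes by construct (y axes, log2 relative to the 75th percentile of each array), with 1 point per array, open where not well above background, and the mean with its SD as a line and bar. All 4 Ptn_VP64 points of Cdh10 lie between -0.41 and 0.27 and all 4 EGFP points are open, at -2.84 or below; Megf11 has open points alone in Ptn_VP64.

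Ntrk2, the receptor for brain-derived neurotrophic factor, was also called higher in the unaveraged fit. Its levels were 0.30 and -0.47 on the 2 Ptn_VP64 arrays with a value, -0.71, -0.83, -1.69 and -1.29 in Ptn_DEL, -1.43 and -1.28 in Ptn_Delta, and -1.41, -1.47 and -2.34 in EGFP. Both Ptn_VP64 arrays lay above all others. The difference from EGFP was 1.59 ± 0.29 (SE), with an adjusted p of 0.309 in the cautious test and 0.0314 in the unaveraged limma fit. It was 1.72 within slide 1 and 1.44 within slide 2, but 0.84 with normexp background correction and 0.39 on the authors' deposited log2 values. Without patch correction the unaveraged fit no longer called it (adjusted p = 0.904). The unaveraged call was lost in 5 of 12 fits that left out an array, and these were EGFP replicate 1 (adjusted p = 0.113), EGFP replicate 4 (0.0569), Ptn_VP64 replicate 3 (0.0634), Ptn_DEL replicate 1 (0.0562) and Ptn_DEL replicate 2 (0.0525).

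Megf11, a transmembrane protein with epidermal growth factor-like repeats that spaces neurons of one type in the mouse retina, was the gene called lower. Its levels were -3.66 and -3.94 on the 2 Ptn_VP64 arrays with a value, neither well above background. They were -2.01, -1.79 and -1.64 in Ptn_DEL, -1.71, -2.30 and -1.59 in Ptn_Delta, and -1.94, -1.61 and -2.19 in EGFP. Both Ptn_VP64 arrays lay below all others, and the other 3 groups overlapped. By the nominal bound Megf11 was 3.02-fold lower in Ptn_VP64 than in EGFP. As fitted it differed by -1.88 ± 0.31 (adjusted p = 0.271 in the cautious test and 0.0149 in the unaveraged limma fit). The fitted difference was -1.72 within slide 1 and -2.04 within slide 2. Without patch correction it was -1.18, and the unaveraged fit no longer called it (adjusted p = 0.803). It was -1.23 with quantile normalization and -0.86 on the authors' deposited log2 values, both smaller than the bound. The second Megf11 probe was well above background on no array.

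Of the transcription factors, Sox11 and Sox1 separated Ptn_VP64 from EGFP in opposite directions, and neither passed the cautious test or the unaveraged fit with the slide. Sox11 was at 0.84, 0.85 and 0.38 in Ptn_VP64, at -0.17, 0.17 and -0.86 in Ptn_DEL, at -0.03, -0.10, 0.25 and -0.93 in Ptn_Delta, and at -0.85, -0.71, -1.12 and 0.18 in EGFP. The Ptn_VP64 arrays lay above all others, by 1.36 ± 0.39 (SE) over EGFP on average (adjusted p = 0.438). The second Sox11 probe averaged 0.50 ± 0.06 (SD, n = 2 arrays) in Ptn_VP64 and -1.81 ± 1.25 (SD, n = 3 arrays) in EGFP.

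Sox1 was at -2.32, -2.59 and -1.40 in Ptn_VP64, at -0.94, 2.45, -1.13 and 0.66 in Ptn_DEL, at -1.20, -0.82 and -1.19 in Ptn_Delta, and at 0.03, -0.01, -0.07 and 0.58 in EGFP. The Ptn_VP64 arrays were the lowest and the Ptn_DEL arrays the most spread. The difference between Ptn_VP64 and EGFP was -2.29 ± 0.48 (SE, adjusted p = 0.458 in the cautious limma test and 0.109 in the unaveraged fit), and only 1 of 3 Ptn_VP64 arrays was well above background. With the replicate number as a block in place of the slide, the unaveraged fit called it (-2.45, adjusted p = 0.0472). The second Sox1 probe was well above background on no Ptn_VP64 or EGFP array, so the difference rests on 1 probe. Zic1 was at -0.53, -0.87, -0.91 and -0.71 in Ptn_VP64 and at -0.06 and -0.66 in EGFP. Its groups overlapped, and its difference of -0.40 ± 0.32 (SE, adjusted p = 0.960) turned positive without patch correction (0.29).

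Markers of other lineages also differed in level between the groups, in both directions. The summed linear level of the 5 trophoblast markers was 27.4 to 152 in Ptn_VP64, 8.29 to 40.3 in Ptn_DEL, 8.32 to 49.8 in Ptn_Delta and 4.20 to 17.4 in EGFP. Most of it was Krt8 and Krt18, keratins of simple epithelia. Krt8 averaged 4.64 in Ptn_VP64 and 0.60 in EGFP (adjusted p = 0.0717 in the unaveraged limma fit). Of the trophoblast transcription factors, Gata3 differed by 2.81 between Ptn_VP64 and EGFP (adjusted p = 0.0869 in the unaveraged limma fit). Cdx2, which was not tested, was well above background on 1 of 1 Ptn_VP64, 2 of 3 Ptn_DEL, 3 of 4 Ptn_Delta and 0 of 4 EGFP arrays with a value. Elf5, a defining trophoblast factor, was never detected. The 5 fibroblast markers summed to 2.10 to 8.17 in Ptn_VP64, 1.19 to 1.82 in Ptn_DEL, 1.25 to 3.41 in Ptn_Delta and 1.12 to 3.45 in EGFP. Of these, Col1a1 differed by 3.00 and Thy1 by -1.34 between Ptn_VP64 and EGFP, and neither was called. Of the 8 glial markers, Mbp, a myelin protein, was called higher in Ptn_VP64 (2.52, adjusted p = 0.0221 in the unaveraged limma fit), while the list summed to 3.26 to 5.94 in Ptn_VP64 and 3.01 to 5.90 in EGFP. The 5 mesoderm markers summed to 0.638 to 1.73 in Ptn_VP64, 0.635 to 2.49 in Ptn_DEL, 0.795 to 1.77 in Ptn_Delta and 1.09 to 10.99 in EGFP. These sums leave out no spot, so readings at background enter them, and 3 of the 5 mesoderm markers were never detected. Eomes, the 1 mesoderm marker tested, was higher in Ptn_VP64 than in EGFP by 0.58 and was not called. The 4 blood markers, 1 of them never detected, summed to 0.668 to 1.54 in Ptn_VP64 and 1.08 to 3.69 in EGFP. Of the 6 endoderm markers, 5 were higher and 1 lower in Ptn_VP64 than in EGFP, and neither limma fit called any. They summed to 2.32 to 2.96 in Ptn_VP64, 1.22 to 8.52 in Ptn_DEL, 1.64 to 3.53 in Ptn_Delta and 0.965 to 2.70 in EGFP. The 9 ES cell markers summed to 276 to 610 in Ptn_VP64 and 502 to 967 in EGFP. The part of these lineages in the levels of Cdh10, Ntrk2 and Megf11 was not tested.

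The 250 bases before the annotated starts of Cdh10 and Ntrk2 are shown because these were the 2 neural genes called higher in Ptn_VP64 in the unaveraged fit. They come from RefSeq on GRCm38.p6, whose promoter table matched 23 of the 31 genes. Both are on the plus strand, Cdh10 at chr15:18820079-18820328 and Ntrk2 at chr13:58806319-58806568. Capitals mark E-boxes (CANNTG, which reads the same on both strands), the motif that proneural and other helix-loop-helix factors are known to bind.
Cdh10: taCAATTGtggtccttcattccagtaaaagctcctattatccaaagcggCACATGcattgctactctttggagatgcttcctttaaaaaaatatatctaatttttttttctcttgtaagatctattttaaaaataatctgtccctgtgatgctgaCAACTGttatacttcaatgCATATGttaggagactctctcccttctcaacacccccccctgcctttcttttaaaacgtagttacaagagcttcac
Ntrk2: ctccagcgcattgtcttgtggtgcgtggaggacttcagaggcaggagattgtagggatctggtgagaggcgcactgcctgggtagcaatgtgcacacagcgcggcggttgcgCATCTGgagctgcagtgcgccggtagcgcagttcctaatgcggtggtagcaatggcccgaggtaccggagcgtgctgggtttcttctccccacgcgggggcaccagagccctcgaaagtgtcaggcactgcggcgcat

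The Cdh10 stretch held 4 E-boxes and the Ntrk2 stretch 1, and 66.2% of all 32851 promoter stretches of this length held at least 1. The stretches had little else in common. The Cdh10 stretch had 36.8% G and C and 2 CpG dinucleotides, and the Ntrk2 stretch 62.8% and 19, against medians of 52.4% and 6 over all promoters. Neither held AACAAT, a Sox-type motif (9.42% of all promoters), GGGCGG, the GC box (32.7%), or TATAAA, the TATA box (12.4%), searched on both strands. These matches describe letters in the windows and are not shown to be sites.

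The comparison of Ptn_DEL with EGFP addresses whether a chromatin-opening peptide at Ptn went with differences in these genes. Among the tested genes Cdh10 again had the largest difference, while Nes, which was not tested and is described further on, also read higher in Ptn_DEL. Of the 18 genes, 10 were higher and 8 lower, with a median of 0.08 against 0.05 over all genes tested. limma called 0 neural genes and 0 of all genes (0%), both in the cautious test and unaveraged. At an unadjusted p under 0.05 the cautious test picked 1 neural gene, against 2.45% of all genes, and the unaveraged fit 2, against 7.22%. Arrays did not overlap for 2 genes that were higher, Cdh10 and Nefl, against 7.49% of all genes, and for 0 that were lower, against 4.18%.

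Cdh10 was higher in Ptn_DEL by 1.87 ± 0.28 (SE, adjusted p = 1 in the cautious test and 0.0558 in the unaveraged limma fit). By the nominal bound it was 2.02-fold higher. With the replicate number as a block in place of the slide, the unaveraged fit called it (1.97, adjusted p = 0.0450), and without EGFP replicate 2 or Ptn_VP64 replicate 1 the fit with the slide called 1 neural gene. With normexp background correction the difference was 0.03, smaller than the bound. Nefl was at 2.64, 2.66 and 3.40 in Ptn_DEL and at 1.97 and 2.41 in EGFP, a difference of 0.65 ± 0.28 (SE, adjusted p = 1). Ntrk2 differed by 0.54 ± 0.24. The genes lower in Ptn_DEL with the smallest p were Sox21 at -0.55 ± 0.31, Syp, a synaptic vesicle protein, at -0.50 ± 0.46 and Elavl3, a neuronal RNA-binding protein, at -0.27 ± 0.52. Each of these overlapped between groups.

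In Ptn_Delta, which shares the EGFP arrays as its reference, the picture was similar. Of the 18 genes, 9 were higher and 9 lower than in EGFP, with a median of 0.02 against 0.05 over all genes. The cautious limma test called 0 neural genes and 0 of all genes (0%), and at an unadjusted p under 0.05 it picked 1 neural gene, against 2.79% of all genes. The unaveraged fit called 1 neural gene, Cdh10, and 2 of all genes (0.0183%). At an unadjusted p under 0.05 it picked 1 neural gene, against 7.79% of all genes. Arrays did not overlap for Cdh10, which was higher (8.6% of all genes), and Sox1, which was lower (5.07%).

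Cdh10 was higher in Ptn_Delta than in EGFP by 2.12 ± 0.28 (SE, adjusted p = 1 in the cautious test and 0.0177 in the unaveraged limma fit). By the nominal bound it was 2.42-fold higher. The difference was 1.66 within slide 1 and 2.59 within slide 2, and with normexp background correction it was 0.30, smaller than the bound. The unaveraged call held in 10 of 16 fits that left out an array, and was lost without EGFP replicate 1 or 3, Ptn_DEL replicate 1 or Ptn_Delta replicate 2, 3 or 4 (adjusted p up to 0.0799). Sox1 differed by -1.23 ± 0.48, Nefl by 0.67 ± 0.28 and Ntrk2 by 0.54 ± 0.27. Sox21 differed by -0.40 ± 0.31 and Snap25 by -0.42 ± 0.51. None of these passed either test.

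**Figure D3:**
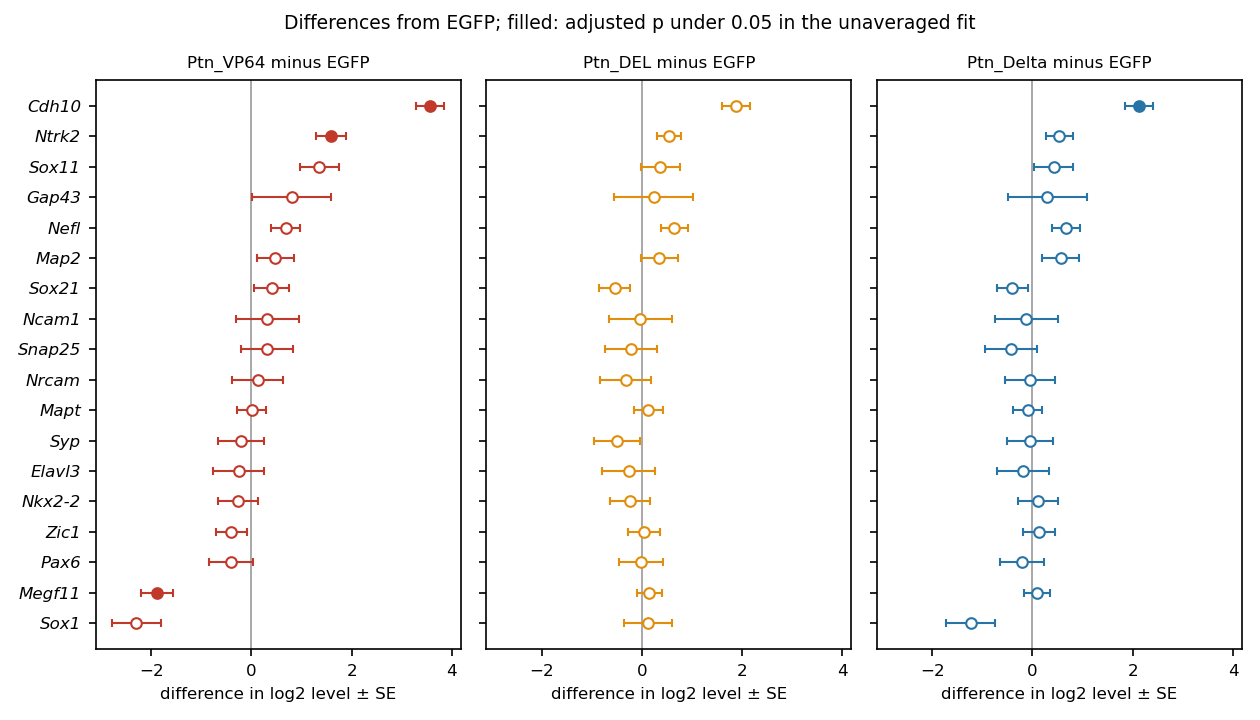
Difference from EGFP of the 18 tested neural genes in log2 level (x axes, with the SE as a bar), for each TALE construct, in the order of the Ptn_VP64 panel and filled where the unaveraged limma fit gave an adjusted p under 0.05. Cdh10 lies farthest right in all 3 panels, at 3.57 for Ptn_VP64, 1.87 for Ptn_DEL and 2.12 for Ptn_Delta; all panels share the EGFP arrays.

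The TALE constructs were also compared with each other, which leaves EGFP out of the difference. Against Ptn_Delta, Ptn_VP64 had 10 neural genes higher and 8 lower (median 0.13, against -0.00 over all genes tested), with 0 called by the cautious limma test, against 0.00915% of all genes, and 3 at an unadjusted p under 0.05, against 4.81%. Against Ptn_DEL it had 11 higher and 7 lower (median 0.31, against -0.02), with 0 called, against 0.00915% of all genes, and 4 at an unadjusted p under 0.05, against 4.1%. The unaveraged fit called the same 2 genes in both comparisons, Cdh10 higher and Megf11 lower, against 0.439% of all genes for Ptn_Delta and 0.741% for Ptn_DEL. At an unadjusted p under 0.05 it picked 5 neural genes against Ptn_Delta (10.4% of all genes) and 5 against Ptn_DEL (9.16%).

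Cdh10 was higher in Ptn_VP64 than in Ptn_Delta by 1.45 ± 0.28 (SE, adjusted p = 0.0379 in the unaveraged limma fit) and than in Ptn_DEL by 1.70 ± 0.28 (adjusted p = 0.0264). By the nominal bound Megf11 was 3.11-fold lower in Ptn_VP64 than in Ptn_Delta (-1.97 ± 0.31 as fitted, adjusted p = 0.0399 in the unaveraged limma fit). Against Ptn_DEL it was 3.23-fold lower (-1.99 ± 0.31, adjusted p = 0.0264 in that fit). These calls are close to the threshold. Under other settings the Megf11 differences were as small as -0.92 against Ptn_Delta and -1.35 against Ptn_DEL, both smaller than the bounds. With the replicate number as a block in place of the slide, the unaveraged fit called 1 neural gene against Ptn_Delta, Cdh10 (adjusted p = 0.0160). It no longer called Megf11 (-1.92, adjusted p = 0.0697). With single arrays left out, the call of Cdh10 held in 6 of 16 fits against Ptn_Delta and 9 of 16 against Ptn_DEL, and that of Megf11 in 8 of 14 and 10 of 14. Their adjusted p-values then ran up to 0.117 and 0.122 for Cdh10 and up to 0.171 and 0.0983 for Megf11.

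Between Ptn_DEL and Ptn_Delta limma called 0 neural genes and 0 of all genes (0%) in either fit, and 0 neural genes reached an unadjusted p under 0.05, against 0.0823% of all genes in the cautious test and 0.521% unaveraged. The median difference was -0.06, against 0.01 over all genes. Cdh10 differed by -0.25 ± 0.28 (SE). The genes with the smallest p were Sox1 at 1.36 ± 0.48, carried by the Ptn_DEL levels of 2.45 and 0.66, and Syp at -0.46 ± 0.46. No neural gene separated the arrays of the 2 groups, against 4.64% of all genes.

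Sox6, a SoxD transcription factor that times differentiation in the nervous system and cartilage, was read by 1 probe. It was at -1.88, -2.53 and -3.12 in Ptn_VP64, at -4.60 and -4.06 in Ptn_DEL, at -3.89, -0.86, -3.97 and -4.63 in Ptn_Delta, and at -0.22, -4.37 and -4.84 in EGFP. Only the Ptn_VP64 level of -1.88, on replicate 1, was well above background. The highest reading was on EGFP replicate 2. The Ptn_VP64 readings lay above those of Ptn_DEL and inside the range of Ptn_Delta and of EGFP. Nrp1, a receptor for semaphorins and for vascular endothelial growth factor, was read by 1 probe at -4.45, -4.80 and -5.32 in Ptn_VP64, at -5.77, -5.50 and -4.65 in Ptn_DEL, at -6.15, -3.83 and -6.00 in Ptn_Delta, and at -1.79, -3.82 and -4.0 in EGFP. No Nrp1 reading was well above background. The readings of Ptn_VP64 and Ptn_DEL lay below those of EGFP, and Ptn_Delta overlapped every group. At background other genes read in the same order. Gfap, Aqp4, Mesp1, Mixl1, Tbx6, Elf5, Ptprc, Pax3, Neurog1 and Fabp7, never detected, each averaged higher in EGFP than in Ptn_VP64 and Ptn_DEL. Neurog2 averaged -3.87 in EGFP, -3.91 in Ptn_VP64 and -3.79 in Ptn_DEL. The order of the Nrp1 readings therefore does not show less Nrp1 RNA. No fold or test is given for Sox6 or Nrp1 in any of the 6 comparisons, since neither reached 4 arrays above background.

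Nes, which codes for the progenitor filament nestin, had values on enough arrays in 3 groups but on 1 Ptn_Delta array. It was at 0.42, -1.21, -0.06 and -0.79 in Ptn_VP64, at 0.28, 0.43, -0.17 and -0.12 in Ptn_DEL, at 0.18 in Ptn_Delta, and at -2.95, -1.05 and -2.54 in EGFP. It was well above background on all arrays of the TALE groups with a value and on 1 of 3 in EGFP. The Ptn_DEL arrays and the Ptn_Delta array lay above every EGFP array, while the lowest Ptn_VP64 array lay below the highest EGFP array. Dlx2 was well above background on 2 of 4 Ptn_VP64 arrays, at -2.53 and -1.73, while the others read -3.84 and -4.71. It was well above background on none of 4 Ptn_DEL, 2 Ptn_Delta and 2 EGFP arrays with a value, which read -5.49 to -4.15. Neither gene was tested.

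The other neural genes followed their own levels without a call. Gap43, a growth cone protein, was at 2.15, -1.79 and 0.46 in Ptn_VP64 and between -0.72 and -0.19 in EGFP, so that its difference of 0.81 ± 0.79 (SE) rests on groups of unlike spread. Ncam1, Nrcam, Mapt, Map2 and Nkx2-2 differed from EGFP in Ptn_VP64 by 0.32 ± 0.63, 0.13 ± 0.50, 0.01 ± 0.29, 0.48 ± 0.37 and -0.27 ± 0.40 (SE). Nrcam, counted among the 11 higher, was well above background on 0 of 4 Ptn_VP64 and 0 of 2 EGFP arrays. Its difference therefore compares readings at background. Nkx2-2 was well above background on 3 of 4 Ptn_VP64 and 1 of 3 EGFP arrays. For Ncam1 the 2 EGFP arrays with a value read 0.28 and 2.51, and the difference was 1.38 within slide 1 and -0.74 within slide 2. At a patch limit of 0.5 another Ncam1 probe stood for the gene and gave -0.55. Pax6 differed by -0.41 ± 0.44 in Ptn_VP64 and by less in Ptn_DEL and Ptn_Delta.

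Genes outside the 31 that belong to the same systems were also counted. Among 17 semaphorin, neuropilin and plexin genes, with Vegfa and its receptor Kdr, which are partners of Nrp1, 11 were tested in the comparison of Ptn_VP64 with EGFP, 8 higher and 3 lower, with a median of 0.38. Among 5 SoxD and SoxB genes, the relatives of Sox6 and Sox1, 4 were tested and 4 were lower, with a median of -0.29. Of 12 Notch pathway genes 11 were tested, 5 higher and 6 lower (median -0.11), and of 18 other neural genes 11 were tested, 8 higher and 3 lower (median 0.22). In all 4 lists limma called 0 genes in the comparisons of each TALE construct with EGFP, in the cautious test and in the unaveraged fit. Over all genes the unaveraged fit called 2.87% for Ptn_VP64, 0% for Ptn_DEL and 0.0183% for Ptn_Delta, which is the background for 0 calls among the 37 tested genes of these lists.

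**Figure D4:**
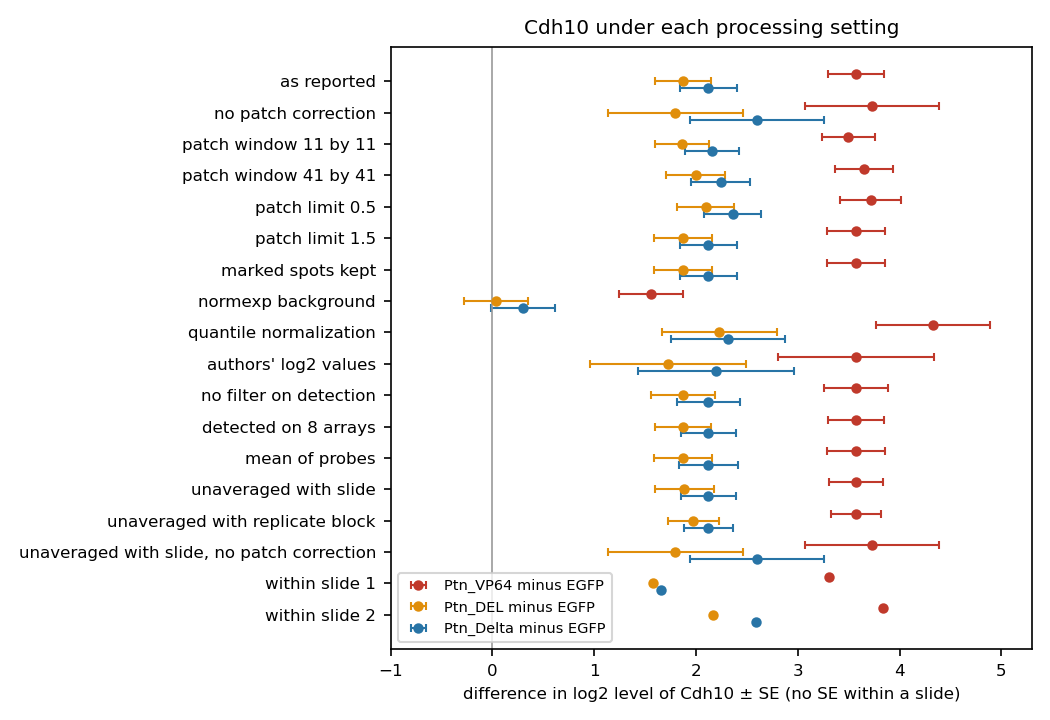
Difference of Cdh10 from EGFP in log2 level (x axis, with the SE as a bar) under each processing setting (y axis), for the 3 TALE constructs. The Ptn_VP64 difference stays between 1.55 and 4.33, lowest with normexp background correction, where those of Ptn_DEL and Ptn_Delta fall to 0.03 and 0.30.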

How the data were processed

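The authors deposited 1 Feature Extraction table per array. Per the file headers, the processed signal is an intensity from which background and a spatial trend were removed by Feature Extraction 11.5.1.1. Median signal and local background are raw intensity as deposited. The deposited series values are log2 and quantile-normalized, to judge from identical quantiles in all 16 columns, and served as an alternative. Probes were named through RefSeq accessions (GRCm38.p6), 27656 of 55681 with 1 symbol.

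The processed signal was divided by its 75th percentile over non-control spots, taken to log2 and corrected by the median shift, from the 16-array median, of bright spots (17906, level at least -1) in windows of 21 by 21 spots. Spots where the shift lay more than 1 log2 unit from its median on that array were left out, as were spots that the software marked as non-uniform or outliers. The brightest probe stood for each gene. Differences and SEs are medians over the 3 pairings fitted with limma 3.58.1 in R 4.3.3 (lmFit, eBayes, 2-sided), with the slide as a term where the pairing followed the slides. Same-numbered arrays of the TALE groups deviated together (r of 0.21 to 0.71 over 12 pairs). Such arrays also lie on the same slide and in the same row of it, so shared samples and shared position cannot be told apart. The main fits do not take the numbers to pair the arrays, and the replicate block is an alternative setting. Scripts were tested on simulated data. Reported p-values measure the spread between these arrays, and their number limits the precision.

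Genes were named by rule: Sox6 and Nrp1, those called by either fit and, against EGFP, the 3 higher and 3 lower with the smallest p (1 and 1 between TALE constructs). Nes, Dlx2, Gap43 and those listed without a test were added for their levels. The 31 genes, the lists and the patch correction were chosen with earlier results of these data known. The unaveraged fits with arrays left out were added after seeing the data. normexp used median signals, the column the files hold.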

Additional observations from a re-analysis of the deposited data

Results flagged for a closer look

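Among 29 sets of 4 arrays of the tested neural genes, 3 held an array far from the other 3 (Dixon's gap test), where chance gives about 1 in 20. Map2, the dendritic microtubule-binding protein, accounted for 2 of them. It was at -0.86 on Ptn_VP64 replicate 1, against -0.26 to -0.16 on the other Ptn_VP64 arrays, and at -1.51 on Ptn_Delta replicate 2, against 0.04 to 0.18. Both readings were not well above background, while the other arrays of those groups were. In EGFP, Sox1 read 0.58 on replicate 4 and -0.07 to 0.03 on the remaining arrays.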

How the results depend on the processing

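Patches, background and the number of arrays limit these results, and the cause of each change below was not tested. Same-numbered arrays correlated at -0.15 to 0.38 in the 12 pairs with EGFP. On slide 1 they correlated at 0.23 to 0.30, against -0.24 to -0.12 where the numbers differed. On slide 2 they correlated at -0.15 to 0.38, against -0.17 to 0.17. They were not above 0.1 in every pair, so the numbers do not show a pairing with EGFP on both slides. With the replicate number as a block, the unaveraged fit called 4, 1, 1, 1, 0 and 2 neural genes (Ptn_VP64, Ptn_DEL and Ptn_Delta against EGFP, Ptn_VP64 against Ptn_Delta, Ptn_DEL against Ptn_Delta, Ptn_VP64 against Ptn_DEL), the fourth being Sox1 (-2.45, adjusted p = 0.0472). With the slide as a term it called 3, 0, 1, 2, 0 and 2, and without patch correction 0 in every comparison. The cautious test called 1 gene, Cdh10, for Ptn_VP64 against EGFP with a window of 11 by 11 spots, and 0 under its other settings with all arrays. With single arrays left out its count was 0 to 1 for Ptn_VP64 against EGFP and 0 elsewhere. The unaveraged counts were then 1 to 4 for Ptn_VP64, 0 to 1 for Ptn_DEL and 0 to 1 for Ptn_Delta against EGFP, 0 to 2 for Ptn_VP64 against Ptn_Delta and against Ptn_DEL, and 0 between Ptn_DEL and Ptn_Delta.

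Median differences of the neural genes moved by more than the spread between arrays as follows. Ptn_VP64 against EGFP gave 0.70 on the authors' deposited log2 values. Ptn_DEL against EGFP gave 0.43 without patch correction (0.37 unaveraged), -0.45 with normexp and -0.21 with no filter on detection. Ptn_Delta against EGFP gave 0.78 without patch correction (0.78 unaveraged), -0.45 with normexp and 0.90 on the authors' values. Ptn_VP64 against Ptn_Delta gave -0.17 without patch correction, 0.45 with quantile normalization, -0.15 with the replicate block and -0.21 within slide 2. Ptn_DEL against Ptn_Delta gave -0.62 without patch correction (-0.58 unaveraged), 0.041 at a patch limit of 0.5, -0.14 with quantile normalization and -0.47 on the authors' values. Ptn_VP64 against Ptn_DEL gave -0.10 at a patch limit of 0.5, 0.81 with quantile normalization and -0.15 within slide 2. With single arrays left out the 6 medians, in the order above, ran from -0.06 to 0.32, -0.04 to 0.15, -0.12 to 0.24, -0.06 to 0.31, -0.067 to 0.059 and 0.03 to 0.43.

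Among the genes named by the rule, those that no test called changed sign as follows. Zic1 in Ptn_VP64 gave 0.29 without patch correction (0.30 unaveraged), 0.30 on the authors' values, 0.43 as the mean of its probes and -1.64 to 1.32 with arrays left out, where another Zic1 probe stood for the gene without EGFP replicate 2 (1.32) or 4 (-1.64). In Ptn_DEL, Ntrk2 gave -0.18 with normexp and -0.90 on the authors' values, Sox21 0.12 at a patch limit of 0.5 (arrays left out, -0.68 to 0.12), Syp 0.26 without patch correction, also unaveraged, and 0.35 on the authors' values (arrays left out, -1.05 to 0.034) and Elavl3 0.54 within slide 2 (arrays left out, -0.81 to 0.27). In Ptn_Delta, Ntrk2 gave -0.44 without patch correction (-0.76 unaveraged), -0.32 with a window of 41 by 41 spots, -0.30 with normexp and -2.07 on the authors' values. Sox21 gave 0.39 at a patch limit of 0.5 (arrays left out, -0.54 to 0.39). In both comparisons its positive values come from the second Sox21 probe, taken where the first lacked values, and do not show a change of the first. Snap25 gave 0.053 within slide 1 (arrays left out, -0.87 to 0.10). The sign of the Cdh10 difference from EGFP was positive for each TALE construct under every setting. With normexp it was within 1 SE of no difference in Ptn_DEL (0.03 ± 0.31) and in Ptn_Delta (0.30 ± 0.31). Megf11 was lower in Ptn_VP64 than in EGFP under every setting that gave it a value.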
